A study of Mus musculus with 35 samples.

Results

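The S100 genes encode small calcium-binding proteins of the EF-hand type, and 10 of them were described here across sorted cells of the mouse mammary gland: S100a1, S100a4, S100a6, S100a8, S100a9, S100a10, S100a11, S100a13, S100a14 and S100a16. They were taken by name from the 19937 genes that the arrays measured with a probe set of a single gene symbol. All 10 were found, and each gene was represented by its probe set with the highest mean over the 35 samples. The choice of the family also rested on one measured pattern, a lower level of S100a14 after pregnancy in several sorts, so the parity values of S100a14 are given below as a description without a test. The rule named no parity value of the other 9 genes and no difference between cell types.

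S100 proteins work mostly as dimers that change shape on binding calcium and then dock on target proteins such as annexins, myosins and cell-surface receptors. In the mammary gland several of them are best known from breast cancer, where S100a4 is linked with motility and S100a8 and S100a9 with inflammation. S100a14 is known mainly from epithelia. The S100a genes lie in a cluster on mouse chromosome 3. In the RefSeq gene order the 10 members follow each other as S100a1, S100a13, S100a14, S100a16, S100a4, S100a6, S100a8, S100a9, S100a11 and S100a10, with other genes between some of them.

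RNA had been taken from 6 FACS-sorted populations of the 4th mammary glands: stromal cells, epithelial cells (the labels give no further gate), Luminal CD24+High Sca1-, Luminal CD24+High Sca1+, Basal CD24+Low Sca1- CD49fLow and Basal CD24+Low Sca1- CD49fHigh cells. CD24, Sca1 and CD49f are surface proteins by which mammary cells are separated. Parous mice had been mated at an age of 42 days, had carried a normal pregnancy, and had then been given 21 days for lactation and 40 days for involution, in which the gland regresses after the pups are weaned. Nulliparous controls were virgins of matched age, and no group carried a genetic change or drug treatment per the labels, which name no strain. Each of the 12 groups held 3 samples, except the parous CD49fHigh group with 2. Each sample pooled glands of 5 mice, and RNA of 10000 cells (2000 for CD49fHigh) was amplified before hybridisation, so one measurement is an average over animals and cells. In such bulk samples fewer cells of a type and less RNA per cell cannot be told apart.

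The labelled cell types could be checked with marker genes. The mean of 8 fibroblast markers was 10.91 and 10.63 in the nulliparous and parous stromal groups and at most 7.54 in any other group, on the log2 scale of the deposited values. The mean of 7 luminal markers was 10.56 to 10.71 in the luminal groups. It was lower but still 8.90 to 9.37 in the basal groups, against 7.82 and 8.10 in the parous and nulliparous stromal groups. The mean of 8 basal and myoepithelial markers was 9.90 to 10.65 in the basal and epithelial groups against 6.34 to 8.09 elsewhere. Markers of hormone-sensing luminal cells (4 of 5 measured) averaged 9.32 and 9.43 in Sca1+ cells, and the 3 markers of luminal progenitors averaged 9.27 and 8.95 in Sca1- cells. The unspecified epithelial sort carried both luminal (10.11 and 10.14) and basal markers. Stromal samples varied in their luminal markers, from 7.05 to 9.04.

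The first question was which sorts express each S100 gene. Of the 10 genes 8 differed among the 6 sorts, averaged over both histories (limma moderated F test, adjusted p under 0.05, against 52.7% of all genes). S100a4 stood out in stromal cells, S100a1 and S100a14 were lowest there, and S100a6 and S100a11 were highest in luminal Sca1+ cells. S100a8 (adjusted p = 0.52) and S100a16 (adjusted p = 0.223) did not pass the test. The call of S100a10 was lost without the nulliparous samples numbered 1 (adjusted p = 0.0964). S100a16 passed without all CD49fHigh samples (adjusted p = 0.0452) and without the parous CD49fHigh replicate 2 alone (adjusted p = 0.0451).

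**Figure D1:**
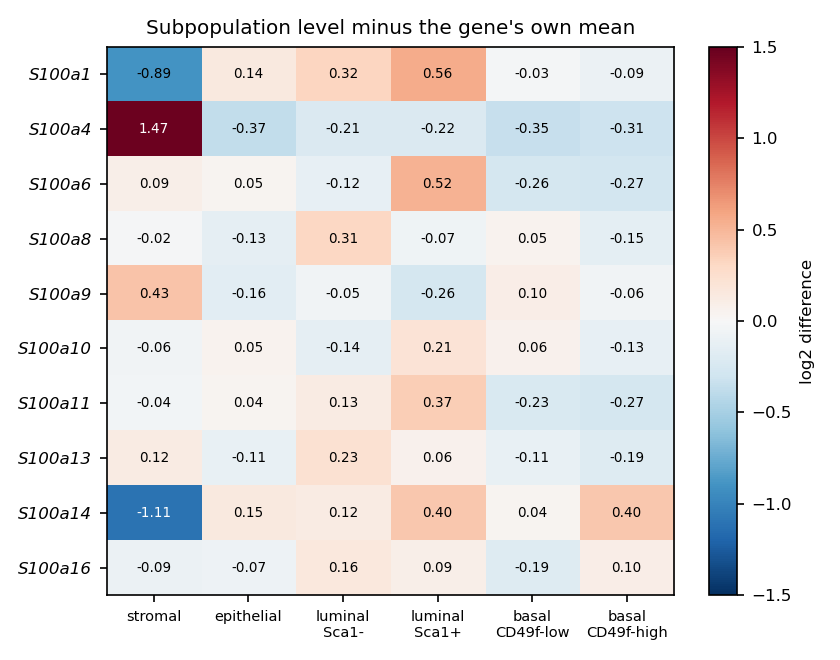
Log2 level of each S100 gene in each sort, averaged over both histories, minus the gene's own mean over the 6 sorts; red is above and blue below that mean, and each cell prints the difference. S100a4 is 1.47 above its mean in stromal cells, and S100a14 (-1.11) and S100a1 (-0.89) are below theirs.

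S100a4, which binds non-muscle myosin and is also called fibroblast-specific protein, ranged from 8.83 to 9.49 in the 6 stromal samples, with a median of 9.04. In the unspecified epithelial sort it lay between 6.84 and 7.58, with a median of 7.38. The stromal values were above those of all 29 samples of the other sorts. The epithelial level was below the stromal one by 1.84 log2 units (SE 0.19, adjusted p = 5.93e-09, limma). Behind the stromal sort, the other 5 sorts followed within 0.16 of each other, from 7.44 in luminal Sca1- to 7.28 in epithelial cells. None of these neighbours in the order differed beyond their spread, while the step from stromal to luminal Sca1- cells did (1.68, adjusted p = 2.56e-08, in a comparison that called 32.6% of all genes).

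S100a1, a protein best known for tuning calcium pumps and channels of muscle, was lowest in the stroma. Its values there ran from 7.29 to 7.74 with a median of 7.52, below all 29 samples of the other sorts except 1 nulliparous CD49fHigh sample at 7.53. In luminal Sca1+ cells it ran from 8.41 to 9.26 with a median of 9.01. The epithelial level exceeded the stromal one by 1.04 (SE 0.16, adjusted p = 5.19e-06). The nearest sort above stroma, basal CD49fHigh, exceeded it by 0.80 (adjusted p = 4.40e-04, against 29.3% of all genes called), and the sorts above that did not differ from their neighbours beyond the spread.

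S100a14, an S100 protein of epithelial tissues, was lowest in the stroma. Over both histories it lay between 5.28 and 5.70 in stromal samples, with a median of 5.45. In the unspecified epithelial sort it lay between 5.87 and 8.05, with a median of 6.37, a difference of 1.25 (SE 0.22, adjusted p = 5.29e-05). All 29 samples outside the stroma were above all 6 stromal ones. The mean levels of the 5 sorts outside the stroma lay between 6.62 in basal CD49fLow and 6.98 in basal CD49fHigh cells. No neighbours in that order differed beyond their spread, and the lowest of them exceeded the stroma by 1.14 (adjusted p = 1.87e-04, against 26.4% of all genes called).

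S100a6, a partner of the calcyclin-binding protein Cacybp, S100a10, which forms a complex with annexin A2, and S100a11, a partner of annexin A1, were higher in luminal Sca1+ than in luminal Sca1- cells. The values of S100a6 ran from 11.88 to 12.15 there and from 11.14 to 11.56 in luminal Sca1- cells, without overlap. S100a11 ran from 11.81 to 11.92 and from 11.49 to 11.70, again without overlap. S100a10 ran from 11.23 to 11.61 in Sca1+ and from 10.74 to 11.31 in Sca1- cells, with overlap. The differences between Sca1+ and Sca1- cells were 0.65 for S100a6 (SE 0.06, adjusted p = 3.31e-09), 0.35 for S100a10 (SE 0.09, adjusted p = 7.22e-03) and 0.25 for S100a11 (SE 0.06, adjusted p = 2.52e-03). For S100a6 and S100a11 the luminal Sca1+ level also exceeded that of the next sort in the order, whereas S100a10 did not differ there beyond its spread from basal CD49fLow (0.15, adjusted p = 0.261) or epithelial cells (0.16, adjusted p = 0.221). These were the 3 members called in that comparison, all higher, where 9% of all genes were called higher and 16.1% in either direction. The median difference of the 10 members was 0.11, against -0.012 over all genes.

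Basal against luminal cells separated 4 of the 10 genes, and all 4 were lower in basal cells, where 19.5% of all genes were called lower and 15.5% higher, 35% together. S100a11 was lower by 0.50 (SE 0.04, adjusted p = 6.82e-11) and S100a6 by 0.47 (SE 0.04, adjusted p = 6.49e-10). S100a1 was lower by 0.50 (SE 0.11, adjusted p = 7.77e-04), and S100a13, which takes part in the release of the growth factor Fgf1, by 0.30 (SE 0.08, adjusted p = 2.23e-03). Pair by pair, only S100a11 was called for both basal sorts against both luminal sorts. S100a1 and S100a6 were called against luminal Sca1+ but not Sca1- cells, and S100a13 against luminal Sca1- but not Sca1+ cells. The median difference of the 10 members was -0.17, against 0.004 over all genes. S100a16 gave -0.17 (SE 0.11, adjusted p = 0.228), and it reached -0.31 (adjusted p = 0.0105) without the CD49fHigh samples and -0.28 (adjusted p = 0.0338) without the parous CD49fHigh replicate 3 alone.

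S100a11 was covered by a second probe set, which followed the first over the 35 samples (r = 0.973) and differed from it by at most 0.158. The reference gene table also lists a pseudogene copy of S100a11, so its signal may hold more than one locus.

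The 2 basal sorts, CD49fHigh and CD49fLow, did not differ in any of the 10 genes by limma (0 also at an unadjusted p under 0.05), in a comparison that called 3.54% of all genes. Without the parous CD49fHigh replicate 2, S100a10 was called at -0.36 (adjusted p = 0.0244). These sorts also differ in the number of cells per sample.

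S100a9, the partner of S100a8 in the neutrophil protein calprotectin, was the other member called lower in epithelial than in stromal cells, by 0.59 (SE 0.15, adjusted p = 2.84e-03). Its values were 5.46 to 6.48 in stromal and 5.12 to 5.79 in epithelial samples, which overlapped. In all, 4 of the 10 members were called between these sorts, against 29.2% of all genes, and their median difference was -0.01 against -0.019. Both calprotectin genes were dim: the mean of S100a9 was above 41.9% of all probe sets and that of S100a8 above 23.4%, and no detection call was used here. The mean of 10 neutrophil markers lay between 4.50 and 4.82 in every group.

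In S100a14 the parous level was lower in each of the 5 sorts outside the stroma. In luminal Sca1+ cells the nulliparous samples read 7.61, 8.0 and 7.86 and the parous ones 6.15, 6.44 and 5.82. In luminal Sca1- cells they read 7.03, 7.58 and 7.25 against 6.15, 6.23 and 5.94. In the unspecified epithelial sort they read 6.63, 7.63 and 8.05 against 5.87, 6.06 and 6.11. No parous sample of these 3 sorts reached the lowest nulliparous one of its sort.

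The same held in the basal sorts. In basal CD49fLow cells the nulliparous samples of S100a14 read 6.52, 7.29 and 7.91 and the parous ones 5.84, 5.94 and 6.18. In basal CD49fHigh cells they read 7.21, 7.53 and 8.72 against 6.27 and 6.02. In the stroma they read 5.46, 5.70 and 5.44 against 5.28, 5.29 and 5.65, with overlap.

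The SDs of S100a14 outside the stroma were 0.125 to 0.314 in the parous and 0.197 to 0.792 in the nulliparous groups, and in luminal Sca1+ cells the parous SD was the larger one. The parous means, 5.99 to 6.14, stayed above the parous stromal mean of 5.41. Within each of the 5 nulliparous groups, the sample numbered 1 was the lowest. Same-numbered samples of one history may come from the same pool of mice, which the labels do not state. The epithelial sort also carried both luminal and basal markers. The 5 sorts can therefore not be taken as independent repeats. The parous minus nulliparous difference was -1.68 (SE 0.32) in luminal Sca1+, -1.18 (SE 0.32) in luminal Sca1-, -1.42 (SE 0.32) in epithelial, -1.25 (SE 0.32) in basal CD49fLow and -1.68 (SE 0.35) in basal CD49fHigh cells. These correspond to 3.21-, 2.27-, 2.68-, 2.38- and 3.19-fold lower levels. In the stroma the difference was -0.12 (SE 0.32). Of the 7 luminal markers 0 were called with parity in these 5 sorts by limma (at an unadjusted p under 0.05, between 0 and 2 of them). Of the 8 basal markers 3 were called higher in luminal Sca1-, 1 in luminal Sca1+ and 3 in basal CD49fHigh cells. The 8 fibroblast markers averaged 7.17 to 7.62 in nulliparous and 6.57 to 6.82 in parous basal CD49fLow samples, with 1 called lower, and 1 was also called lower in luminal Sca1+ cells. The 6 endothelial markers averaged 5.03 to 5.50 in nulliparous and 5.82 to 6.37 in parous luminal Sca1+ samples, with 0 called by limma and 4 at an unadjusted p under 0.05. In luminal Sca1- cells 1 of 3 luminal progenitor markers was called lower. The part of these markers in the S100a14 values was not tested.

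**Figure D2:**
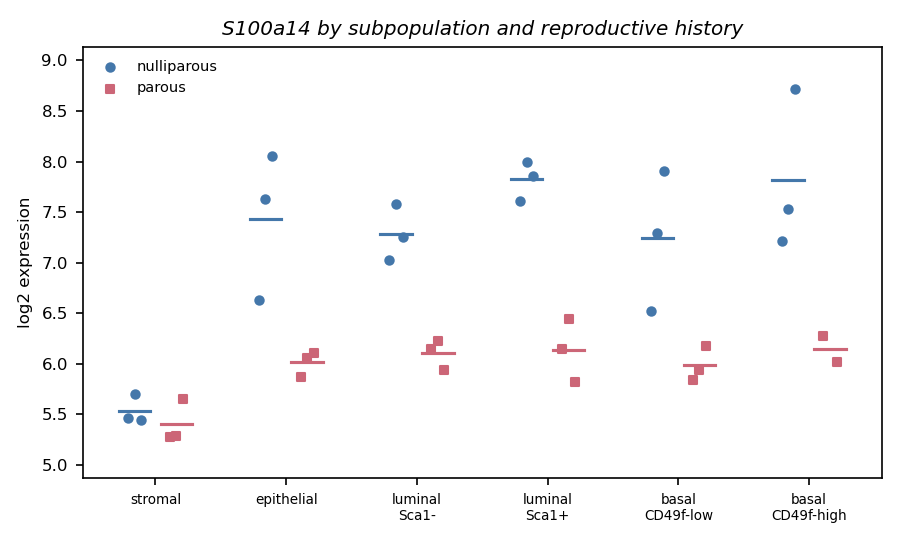
Log2 expression of S100a14 in each sample (circles nulliparous, squares parous, bars the group means; CD49f-low and -high are the CD49fLow and CD49fHigh sorts). The parous samples lie below all nulliparous ones in the 5 sorts outside the stroma, and both histories overlap between 5.28 and 5.70 in stromal cells.

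For the other 9 members the parity question was tested in each sort. They were called in 0 of 9 cases in stromal, epithelial, luminal Sca1+ and basal CD49fLow cells by limma, where an unadjusted p under 0.05 was reached by 1, 1, 0 and 1 of them. In luminal Sca1- cells 1 of 9 was called and in basal CD49fHigh cells 4 of 9. Over all genes the shares called were 0.597%, 0.446%, 0.607% and 0.968% in the first 4 sorts, 1% in luminal Sca1- and 9.06% in basal CD49fHigh cells. Groups that did not overlap were counted for 3, 2, 4, 0, 1 and 5 of the 9 genes in stromal, epithelial, luminal Sca1-, luminal Sca1+, basal CD49fLow and basal CD49fHigh cells, where 15.9%, 15%, 17.7%, 12.9%, 14.3% and 27.7% of all genes had such groups. The family was chosen partly from these same contrasts, so nothing is read from its counts against those shares.

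S100a4 fell in parous luminal Sca1- cells. The nulliparous samples read 7.72, 8.70 and 8.37 and the parous ones 6.63, 6.83 and 6.40, with no overlap. The difference was -1.64 (SE 0.27, adjusted p = 8.53e-04, limma), a 3.12-fold lower level, and it was called under all 17 alternatives run for it, between -1.91 and -1.42. In the other 5 sorts the S100a4 values of both histories overlapped, with differences from -0.33 in luminal Sca1+ to 0.07 in basal CD49fHigh cells. The nulliparous luminal Sca1- mean of 8.26 was second only to the stroma, and the parous one of 6.62 was the lowest of the 12 groups. A test of whether the parity difference varies among the 6 sorts gave an adjusted p of 0.0462 for S100a4, against 2.8% of all genes called. That call held under 20 of 45 alternatives, and leaving out 1 sample at a time lost it for samples of all 6 sorts, so it lies at the threshold.

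Marker lists in those same luminal Sca1- samples moved as follows. The list mean of 8 fibroblast markers was 6.03 to 6.44 in nulliparous and 5.98 to 6.21 in parous samples, with 0 called by limma and 1 at an unadjusted p under 0.05. The 11 measured macrophage and dendritic markers gave 5.68 to 6.33 and 5.82 to 6.26, with 0 called by limma and 0 at an unadjusted p under 0.05. The 8 basal markers gave 6.70 to 6.96 and 7.28 to 7.48, with 3 called higher, and the 3 luminal progenitor markers 9.11 to 9.50 and 8.79 to 9.03, with 1 called lower. The 7 measured T and B cell markers gave 4.65 to 4.85 and 4.46 to 4.69. The 6 measured keratinocyte markers gave 5.58 to 5.98 and 5.36 to 5.59. For the 5 skeletal muscle markers the values were 6.05 to 6.25 and 5.88 to 6.05. In these lists 0 were called by limma, and in that order 2, 1 and 2 markers reached an unadjusted p under 0.05. The part of all these markers in the S100a4 difference was not tested.

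Other members also had separate groups in luminal Sca1- cells without passing the threshold. S100a8 read 4.83, 5.40 and 5.80 in nulliparous and 4.15, 4.21 and 4.19 in parous samples, a difference of -1.16 (SE 0.34, adjusted p = 0.108). It was called with array weights (-1.25, adjusted p = 0.0256), without the nulliparous samples numbered 1 (-1.42, adjusted p = 0.0452) and with that sort fitted alone (adjusted p = 0.0441). The 10 neutrophil markers averaged 4.58 to 4.76 in the nulliparous and 4.59 to 4.67 in the parous samples, with 0 called by limma and 0 at an unadjusted p under 0.05. S100a9, its partner, overlapped between 5.31, 5.41 and 6.06 in nulliparous and 5.21, 5.31 and 5.50 in parous samples.

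S100a13 read 8.14, 8.06 and 8.29 in nulliparous and 8.68, 8.77 and 8.42 in parous luminal Sca1- samples, higher by 0.46 (SE 0.15, adjusted p = 0.15), and was called with array weights (adjusted p = 0.0363). S100a10 was lower by 0.21 (SE 0.13, adjusted p = 0.593) without overlap.

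**Figure D3:**
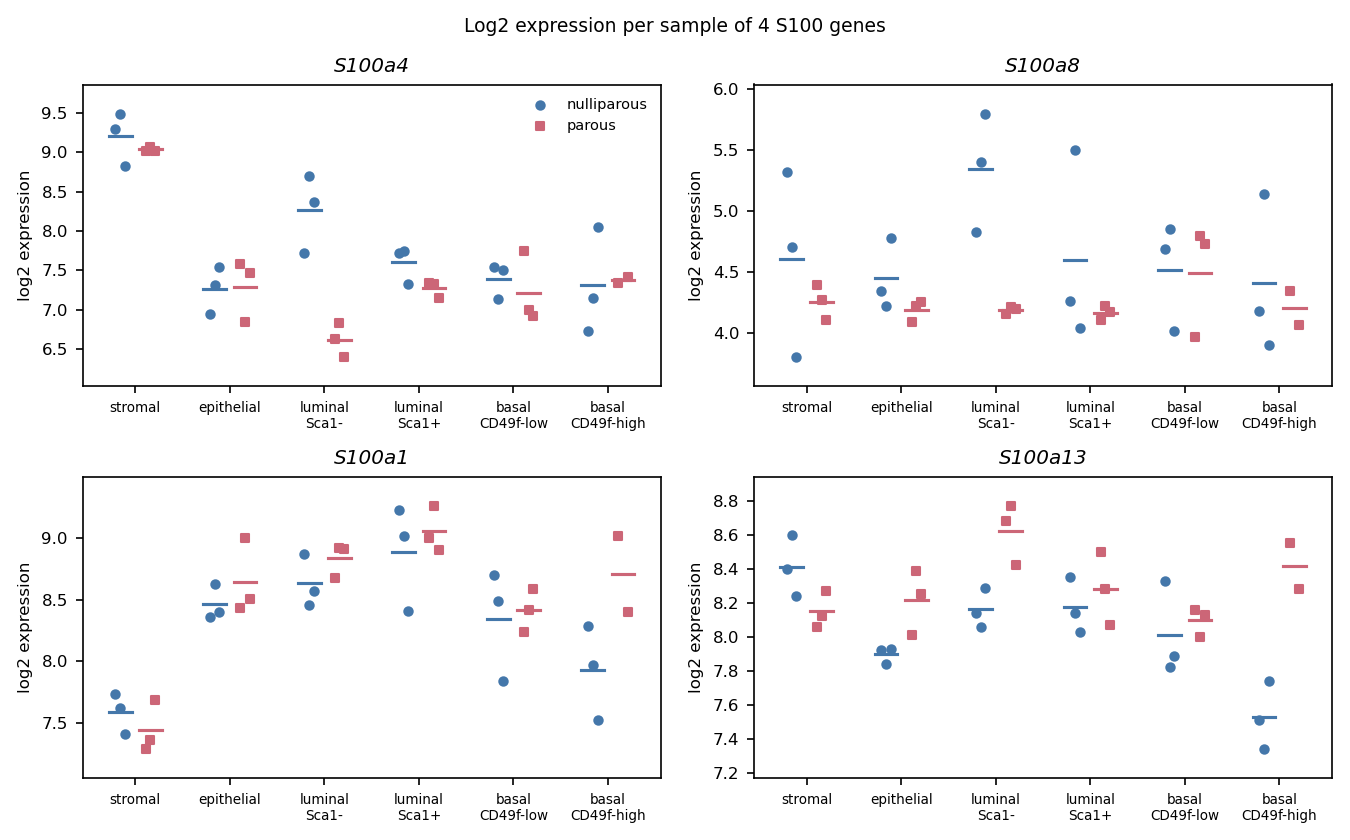
Log2 expression of S100a4, S100a8, S100a1 and S100a13 in each sample (circles nulliparous, squares parous, bars the group means; each panel has its own axis). S100a4 and S100a8 are lower in all 3 parous luminal Sca1- samples, and S100a1 and S100a13 are higher in both parous basal CD49fHigh samples.

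In basal CD49fHigh cells, where 9.06% of all genes were called, S100a13, S100a1 and S100a6 rose and S100a10 fell. S100a13 read 7.51, 7.34 and 7.74 in nulliparous and 8.55 and 8.28 in parous samples, a difference of 0.89 (SE 0.16, adjusted p = 7.79e-04, limma). S100a1 read 8.29, 7.97 and 7.53 against 9.02 and 8.40, a difference of 0.78 (SE 0.25, adjusted p = 0.0459). Both parous samples lay above the 3 nulliparous ones in each gene, though for S100a1 the gap was only from 8.29 to 8.40.

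S100a6 read 11.10, 11.03 and 11.17 in nulliparous and 11.60 and 11.28 in parous CD49fHigh samples, a difference of 0.34 (SE 0.10, adjusted p = 0.0231). S100a10 read 11.26, 11.23 and 11.55 against 11.19 and 10.52, a difference of -0.50 (SE 0.15, adjusted p = 0.0291). The lower parous S100a10 value came from the sample numbered 3, and the one numbered 2 lay just under the nulliparous range.

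These CD49fHigh calls rest on 2 parous samples. S100a1 and S100a6 were not called without the parous replicate 2 (0.47 and 0.19) or the nulliparous replicate 2 (0.80 and 0.31), and S100a1 was also lost without the nulliparous replicate 3 (0.58). S100a10 was not called without the parous replicate 3 (-0.16) or the nulliparous replicate 3 (-0.39). With array weights S100a1, S100a6 and S100a10 also lost their calls (limma, adjusted p = 0.157, 0.197 and 0.122). All 3 were lost again with the CD49fHigh samples fitted alone (limma, adjusted p = 0.456, 0.426 and 0.485). S100a13 was called in 14 of 15 alternatives, and was lost only when the CD49fHigh samples were fitted alone (adjusted p = 0.29), where limma called 0 of all 19937 genes.

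Several marker lists moved in the same CD49fHigh samples. The 8 basal markers averaged 9.92 to 10.40 in nulliparous and 10.54 to 10.76 in parous samples, with 3 called higher. The 3 measured adipocyte markers gave 4.80 to 5.08 and 5.62 to 6.0, with 1 called higher, and the 6 endothelial markers 5.51 to 6.91 and 5.00 to 5.69, with 1 called lower. The 4 measured hormone-sensing markers gave 6.64 to 6.90 and 6.30 to 6.39, with 1 called lower. The 2 measured Schwann cell markers gave 7.10 to 7.15 and 7.58 to 7.63, with 1 called higher, and the 10 neutrophil markers 4.61 to 4.74 and 4.78 to 4.87, with 1 called higher. The 11 macrophage and dendritic markers overlapped, at 5.46 to 6.15 and 5.86 to 6.35, with 1 called higher. The 3 luminal progenitor markers gave 5.91 to 6.32 and 6.40 to 6.52, with 0 called by limma. All of these lists but the endothelial and the macrophage one were separate between the histories. The part of these markers in the S100 values was not tested.

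S100a1 and S100a13 lie head to head, and their promoter windows overlap. The windows, taken from RefSeq on GRCm38.p6, are 300 bases long and span the start of each gene, and are shown because both genes were called higher in the same parous sort. S100a1 is on the minus strand at chr3:90514281-90514580 and S100a13 on the plus strand at chr3:90514185-90514484. Capitals mark the 204 bases that both windows share, each read 5′ to 3′ on its own strand, so that the capitals of one are the reverse complement of the other.
S100a1: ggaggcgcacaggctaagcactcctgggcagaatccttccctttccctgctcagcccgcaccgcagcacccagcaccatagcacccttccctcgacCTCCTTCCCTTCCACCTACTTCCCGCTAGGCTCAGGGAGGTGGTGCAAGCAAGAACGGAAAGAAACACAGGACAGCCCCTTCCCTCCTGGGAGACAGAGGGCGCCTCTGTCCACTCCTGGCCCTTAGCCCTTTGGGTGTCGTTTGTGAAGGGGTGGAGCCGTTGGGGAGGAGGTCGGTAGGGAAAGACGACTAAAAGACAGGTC
S100a13: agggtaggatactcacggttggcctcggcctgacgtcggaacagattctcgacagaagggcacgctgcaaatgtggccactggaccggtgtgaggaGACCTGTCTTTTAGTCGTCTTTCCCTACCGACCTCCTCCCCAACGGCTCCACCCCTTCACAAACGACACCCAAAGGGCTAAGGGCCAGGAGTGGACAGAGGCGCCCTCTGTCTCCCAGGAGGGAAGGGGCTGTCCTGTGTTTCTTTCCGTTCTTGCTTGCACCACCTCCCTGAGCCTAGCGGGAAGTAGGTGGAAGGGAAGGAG

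In the other sorts neither gene of the pair was called with parity. S100a13 was higher in parous epithelial cells without overlap (7.92, 7.84 and 7.93 against 8.01, 8.39 and 8.25; 0.32, SE 0.15, adjusted p = 0.639), where S100a1 overlapped (0.19, adjusted p = 0.965). Its parity difference ranged from -0.26 in stromal to 0.89 in CD49fHigh cells and varied among the sorts (moderated F test, adjusted p = 0.0236). That call was lost without the CD49fHigh samples (adjusted p = 0.287) and without the parous CD49fHigh replicate 2 (adjusted p = 0.0825), the CD49fHigh nulliparous replicate 2 (adjusted p = 0.065), the stromal parous replicate 1 (adjusted p = 0.0516) or the stromal nulliparous replicate 2 (adjusted p = 0.0585). It was also lost with quantile normalization (adjusted p = 0.0503) and without the nulliparous samples numbered 1 (adjusted p = 0.0766). For S100a1 the same test gave an adjusted p of 0.568.

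The promoter window of S100a4 is shown because this gene stood furthest above its own mean in the stroma and was called in luminal Sca1- cells. It lies on the plus strand at chr3:90603520-90603819 on GRCm38.p6, and capitals mark a TATAAA motif that begins at position -31 from the start of the gene.
S100a4: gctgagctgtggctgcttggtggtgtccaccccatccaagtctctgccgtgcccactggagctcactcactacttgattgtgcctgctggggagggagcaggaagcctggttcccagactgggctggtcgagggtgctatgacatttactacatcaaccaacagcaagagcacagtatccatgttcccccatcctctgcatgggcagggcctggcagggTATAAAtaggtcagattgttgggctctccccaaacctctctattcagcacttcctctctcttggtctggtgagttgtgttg
The same 6 letters were found in 3 of 9 windows of the members, those of S100a4, S100a8 and S100a9, searching both strands, and in 13.6% of all 32851 windows of the same length. The 9 windows belonged to 8 members, and S100a10 and S100a14 were not in the promoter table.

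S100a11 and S100a16 were called with parity in none of the 6 sorts by limma (at an unadjusted p under 0.05, S100a16 in the stroma only). S100a11 differed by at most 0.06 between histories in any sort, with overlapping values in all 6. S100a16 read 8.73, 8.80 and 8.66 in nulliparous and 8.28, 8.28 and 8.20 in parous stromal samples, lower by 0.48 without overlap (SE 0.20, adjusted p = 0.445). In the stroma all 9 differences were negative, from -0.48 to -0.04. In the same stromal samples the 6 endothelial markers averaged 7.92 to 8.60 in nulliparous and 7.13 to 7.64 in parous samples, with 1 called lower. The 8 basal markers gave 8.07 to 8.11 and 7.47 to 7.72, with 2 called lower, and the 8 fibroblast markers 10.75 to 11.08 and 10.57 to 10.68, with 1 called lower. Their part in the S100 differences was not tested. S100a9 was lower by 0.46 in parous basal CD49fLow cells without overlap (SE 0.21, adjusted p = 0.435).

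**Figure D4:**
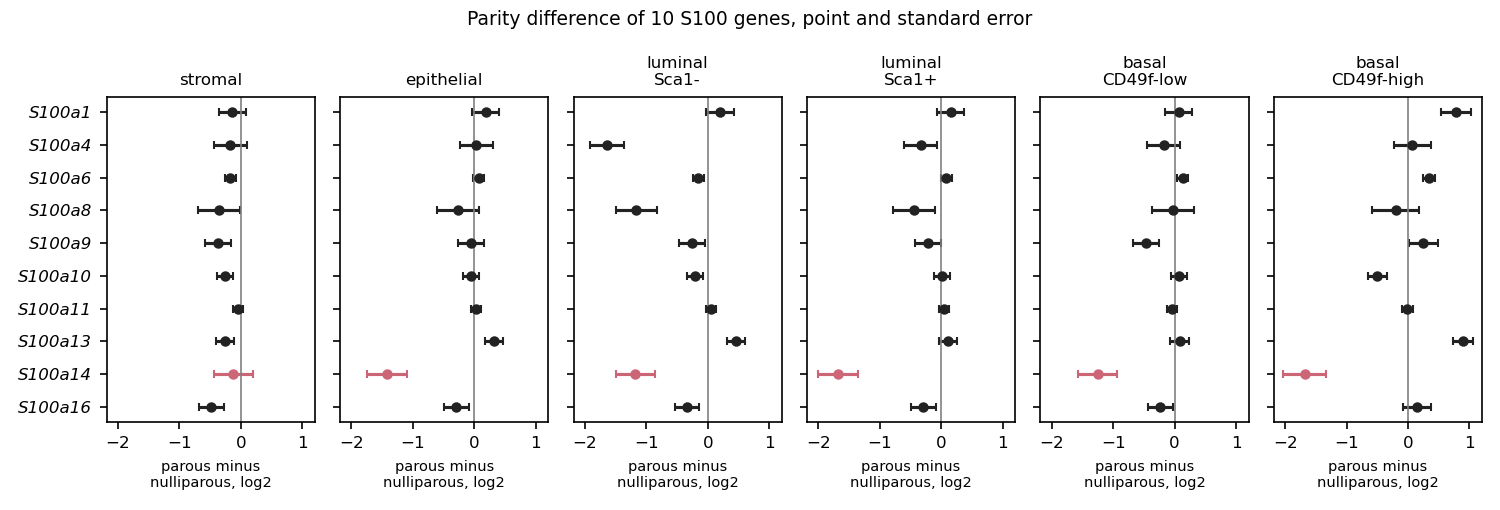
Parous minus nulliparous difference (log2) of the 10 S100 genes in each sort; points are the fitted differences and bars their standard errors, with S100a14, which was not tested, in red. S100a14 lies between -1.68 and -1.18 outside the stroma, and the S100a4 point at -1.64 in luminal Sca1- cells is the other difference below -1.5.

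The other 8 S100 genes on the arrays with a single symbol, S100a2, S100a3, S100a5, S100a7a, S100b, S100g, S100z and S100pbp (the gene of an S100P-binding protein, not of an S100 protein), gave 1 parity call. S100pbp was higher in parous basal CD49fHigh cells, at 8.12 and 8.26 against 7.27, 7.74 and 7.36 (0.73, SE 0.19, limma, adjusted p = 0.0131). In that comparison 9.06% of all genes were called. S100pbp was not called without the parous replicate 3 (0.67), with array weights (adjusted p = 0.16) or with that sort fitted alone (adjusted p = 0.347). S100a3, 2 measured genes away from S100a14, read 6.98, 7.34 and 6.94 in nulliparous and 5.94, 6.59 and 5.47 in parous luminal Sca1- cells (-1.09, SE 0.32, adjusted p = 0.112). These S100a3 groups did not overlap, in a sort where 17.7% of all genes had separate groups. Among the sorts, 5 of these 8 genes differed, against 52.7% of all genes: S100a3, S100a5, S100b, S100g and S100pbp. S100g, the vitamin D-dependent calcium carrier calbindin-D9k, was lower in luminal Sca1+ than Sca1- cells by 0.61 (SE 0.13, adjusted p = 1.31e-03). S100b, which marks glia, was lower in epithelial than stromal cells by 0.47 (SE 0.12, adjusted p = 3.86e-03). Its mean was 5.63 in stromal and also in basal CD49fHigh cells, and its overall mean was above only 39% of all probe sets.

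Position beside S100a14 was examined through the 5 measured genes on either side of it: Ilf2, Snapin, Chtop, S100a1 and S100a13 before, and S100a16, S100a3, S100a2, S100a4 and S100a5 after. None of these 10 was called with parity in stromal, epithelial, luminal Sca1+ or basal CD49fLow cells by limma (at an unadjusted p under 0.05, 2, 1, 1 and 0 of them). Over all genes 0.597%, 0.446%, 0.607% and 0.968% were called in these sorts. In luminal Sca1- cells, where 1% of all genes were called, 1 was called, S100a4. In basal CD49fHigh cells, where 9.06% were called, Ilf2, an RNA-binding protein gene, fell by 0.63 (SE 0.18, limma, adjusted p = 0.0256). S100a1 and S100a13 rose there, and these calls and that of S100a4 are the member calls given above. Ilf2 was not called without the parous replicate 2 (-0.44) or the nulliparous replicate 1 (-0.52). Its call was also lost with array weights (adjusted p = 0.215) and with that sort fitted alone (adjusted p = 0.426).

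The genes of S100 binding partners and receptors were followed as a list of 22. Among the sorts 16 of the 22 differed, against 52.7% of all genes. The annexins split by type between basal and luminal cells: Anxa1, the partner of S100a11, was lower in basal cells by 1.52 (SE 0.05, adjusted p = 2.75e-20) and Anxa2, the partner of S100a10, by 0.70 (SE 0.06, adjusted p = 2.34e-10), while Anxa6 was higher by 0.91 (SE 0.05, adjusted p = 1.91e-14). Tlr4, a receptor of S100a8 and S100a9, was lower in basal cells by 1.66 (SE 0.13, adjusted p = 2.16e-11). Plat, the plasminogen activator whose product is bound by S100a10, was higher in basal cells by 1.38 (SE 0.12, adjusted p = 1.63e-10), and Plaur, the urokinase receptor, lower by 1.20 (SE 0.13, adjusted p = 5.38e-09). In all, 9 of the 22 were lower and 7 higher in basal cells, against 19.5% and 15.5% of all genes. Between epithelial and stromal cells 9 were higher and 5 lower in the epithelium, where 29.2% of all genes were called, among them Plaur (1.22) and Myh9 (1.07) on the higher and Plat (-1.38) and Tlr4 (-1.13) on the lower side.

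Anxa2, the partner of S100a10, was called for basal against luminal cells and for epithelial against stromal cells (0.39, SE 0.09, adjusted p = 7.26e-04), comparisons in which S100a10 was not called. Anxa2 was higher in luminal Sca1+ than Sca1- cells by 0.32 (SE 0.09, adjusted p = 0.01), a call lost without the nulliparous samples numbered 1 (0.29, adjusted p = 0.0551). In the same comparison Tlr4 was lower by 1.77 (SE 0.18, adjusted p = 1.80e-08). With parity, 5 of the 22 partners were called in basal CD49fHigh cells, a comparison that called 9.06% of all genes. Anxa1 fell by 0.82 (SE 0.11, adjusted p = 1.54e-05), Plat by 0.97 (SE 0.27, adjusted p = 0.0193), Myh9, the myosin bound by S100a4, by 0.62 (SE 0.12, adjusted p = 1.08e-03) and Anxa2 by 0.51 (SE 0.14, adjusted p = 0.0175).

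Fgf1, whose release involves S100a13, rose by 0.98 (SE 0.24, adjusted p = 7.44e-03) in the same parous CD49fHigh cells in which S100a13 rose. Of these 5 calls, that of Anxa2 was lost without either parous replicate (-0.52 and -0.50) or without the nulliparous replicate 2 or 3 (-0.50 and -0.49). Plat was lost without the parous replicate 3 (-0.51) or the nulliparous replicate 1 (-0.68), and Fgf1 without the parous replicate 3 (0.89) or the nulliparous replicate 3 (0.71). With array weights Anxa2, Plat and Fgf1 also lost their calls (limma, adjusted p = 0.145, 0.216 and 0.0512). All 5 were lost with the CD49fHigh samples fitted alone. Anxa1 was called in the other 14 of 15 alternatives. Myh9 was not called when all its probe sets were averaged (-0.16, adjusted p = 0.758). In basal CD49fLow cells the only partner called was Trpv6, a calcium channel whose trafficking involves S100a10 and annexin A2. Trpv6 fell by 0.99 (SE 0.19, limma, adjusted p = 5.73e-03). That call was lost without the parous replicate 2 or the nulliparous replicate 1 (-0.80 and -0.75). It was also lost with that sort fitted alone (adjusted p = 0.18). In stromal, epithelial, luminal Sca1- and luminal Sca1+ cells 0 of the 22 were called with parity by limma (at an unadjusted p under 0.05, 2, 1, 1 and 2 of them).

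Over the 12 group means, the members most alike were S100a6 and S100a11 (r = 0.827) and S100a4 and S100a9 (r = 0.761), and the most opposed were S100a1 and S100a4 (r = -0.731). S100a13 and S100a14 gave r = -0.639. Outside the family, the genes whose 12 group means followed a member most closely were Cep55 (r = 0.944), Ccdc18 (r = 0.935) and Cks2 (r = 0.929) for S100a14, Myo18b (r = 0.964), Tmem182 (r = 0.951) and Dmp1 (r = 0.945) for S100a4, and Tmed3 (r = 0.992), Manba (r = 0.984) and Ccdc71l (r = 0.984) for S100a11. For S100a1 they were Chdh (r = 0.965), Phactr4 (r = 0.963) and Mob4 (r = 0.958), and for S100a6 Ppil6 (r = 0.960), Fip1l1 (r = 0.939) and Atxn10 (r = 0.936). For S100a13 and S100a16 the closest, Jund (r = 0.891) and Sf3b5 (r = 0.880), followed less tightly. For S100a8, S100a9 and S100a10 they were Ccl5 (r = 0.912), Arhgap31 (r = 0.937) and Rcan1 (r = 0.928). These values describe 12 points that share arrays, sorts and pools, and were picked as the highest among all genes.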

How the data were processed

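Expression had been measured on 1-colour Affymetrix arrays from amplified RNA of 35 samples, 1 array each, and the number of arrays limits the precision. Each deposited value is the log2 signal of 1 probe set, which the authors made with affy software per the submitters' processing notes. They span 1.74 to 13.28 with column medians of 5.813 to 5.924. Neither the software version nor the normalization, background correction or genome build was given in the sources used here.

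Of 34760 probe sets, 21640 had a single gene symbol, 1321 several and 11799 none. The last 2 kinds were left out, and for 954 genes with several probe sets the one with the highest mean was kept. limma 3.58.1 (R 4.3.3) fitted 12 group means to all 19937 genes, with eBayes and a variance trend. P-values were adjusted by Benjamini-Hochberg over all genes of a comparison and called under 0.05. Replicates are separate pools of mice per the labels. On simulated data of 19937 genes for parity in luminal Sca1- cells, 91% of changes of 1 log2 unit were recovered. Of all calls there, 4.55% were false, with changes of 1 and 2 log2 units planted together. The simulated noise was independent between samples, with the same spread of a gene in every group and no shared pools. These shares therefore describe the fit under those settings and not the real groups.

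The 10 members, the partner and marker lists and the tests were chosen with earlier results of these data known. All members, all other S100 genes with a single symbol, up to 4 called partners per direction and comparison, and the 3 genes most alike each member could be named. The gene order, the promoter windows and their build come from RefSeq tables, and no gene coordinates were converted.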

Additional observations from a re-analysis of the deposited data

Results flagged for a closer look

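The parity difference of S100a13 varied among the 6 sorts (moderated F test, limma, adjusted p = 0.0236), from -0.26 in stromal to 0.89 in basal CD49fHigh cells. The parity difference of S100a4 also varied among the sorts (adjusted p = 0.0462), from -1.64 in luminal Sca1- to 0.07 in basal CD49fHigh cells. Both calls were lost under several alternatives, as given above, and the test called 2.8% of all genes. S100a6 had opposite separations in 2 sorts: all parous samples were above the nulliparous ones in basal CD49fHigh cells (0.34) and below them in stromal cells (-0.17). S100a9 was likewise above in basal CD49fHigh (0.25) and below in basal CD49fLow cells (-0.46). Its gap in CD49fHigh cells was only from 5.53 to 5.57, and it was called in neither sort. S100a6 was not called in the stroma. Of all genes 27.7%, 15.9% and 14.3% had separate groups in basal CD49fHigh, stromal and basal CD49fLow cells. For S100a6 and S100a9 the difference between the 2 sorts named for each was not tested as a pair. Over all 6 sorts the F test gave adjusted p-values of 0.0986 for S100a6 and 0.669 for S100a9. S100a6 passed without the luminal Sca1- parous replicate 2 (adjusted p = 0.0319) or the CD49fHigh parous replicate 3 (adjusted p = 0.0272). Groups of 2 or 3 samples were too small for a search for single samples far from the rest.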

How the results depend on the processing

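The alternatives were eBayes without a trend, array weights, quantile normalization, removal of dim genes, the mean of all probe sets, the pool as a random block (correlation 0.07), no CD49fHigh samples, no nulliparous samples numbered 1 or 3, each sort alone, and each sample left out in turn. The replicate number as a block, described below, was also among them. The S100a14 parity differences lay between -1.98 and -0.92 outside the stroma under these alternatives. The choice of the family rested on this fall, so the range is a description and nothing is read from it. Of 69 called member differences and F tests, 51 were called in every alternative run for them, 91 of 1729 alternatives lost a call and 0 reversed. For the other S100 genes, the partners and Ilf2, 132 of 1385 lost a call and 0 reversed.

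Members called with parity in luminal Sca1- cells went from 1 to 3 with array weights, 2 without nulliparous samples numbered 1 and 2 with that sort alone (all genes: 200 to 614, 354 and 146). In basal CD49fHigh cells they went from 4 to 1 with array weights, 2 without nulliparous samples numbered 3 and 0 with that sort alone (all genes: 1806 to 590, 1235 and 0), and to between 2 and 4 with 1 sample left out. Members whose parity difference varied among sorts went from 2 to 1 with quantile normalization, without CD49fHigh samples or without nulliparous samples numbered 1, and to between 0 and 2 with 1 sample left out; 0 was reached without the stromal parous replicate 1 or the CD49fHigh nulliparous replicate 2, and without the CD49fHigh parous replicate 2 S100a10 alone was called (adjusted p = 0.0383). Between the basal sorts the count was 0 or 1.

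With the replicate number as a replicate block, the members called stayed at 8 among sorts, 4, 3, 0 and 4 for basal against luminal, Sca1+ against Sca1-, CD49fHigh against CD49fLow and epithelial against stromal, 1 and 4 with parity in luminal Sca1- and CD49fHigh cells, 0 in the other 4 sorts, 2 for variation among sorts and 6 for neighbours. This block gave a number the same effect in parous and nulliparous samples, although these come from different mice. It is therefore not a block by pool. The S100a14 difference in CD49fHigh cells was -1.81 under this block. All-gene counts with parity rose from 200 to 322 in luminal Sca1- and from 1806 to 2334 in CD49fHigh cells. Same-numbered samples of one history correlated at 0.012 to 0.338 in their deviations, and 35 of 35 samples correlated best with their own number, a hint from the data that the labels do not state.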
